A study of Mus musculus with 4 samples.

Results

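The genes described here are 10 members of the integrated stress response and the unfolded protein response: Atf4, Ddit3, Trib3, Asns, Chac1, Sesn2, Xbp1, Herpud1, Sdf2l1 and Gdf15. They were chosen by name from 22456 genes, through their symbols in the GENCODE M21 annotation. The rule itself uses no expression value, but earlier results of these data were known when the genes were chosen. Expression was measured by RNA sequencing in mesenchymal cells, called fibroblasts, from mammary tumours of Balb/cAnN mice. The GSK group (2 libraries) came from tumours grown from 4T1 cells, a mouse mammary carcinoma line, that had been kept for 5 days in 5 µM of the compound GSK269962A before transplantation. The DMSO group (2 libraries) came from tumours of 4T1 cells kept in the solvent DMSO beforehand. The tumours were grown orthotopically, and in all 4 libraries it was the cancer cells that had received the compound or the solvent. The age of the tumours is not given in the labels. The fibroblasts were what remained after cells labelled for CD45, CD31, CD326 or hCD2 had been bound to magnetic beads. Neither the age of the mice nor the number of animals behind a library is given in the labels. The error of every test combines the spread between the libraries of a group with a variance estimated over all genes tested. The spread between libraries may be technical.

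The integrated stress response begins when one of several kinases phosphorylates the translation factor eIF2α. Most protein synthesis then slows, while the mRNA of the transcription factor ATF4 is translated more, and ATF4 induces genes of amino acid supply together with Ddit3, which encodes the factor CHOP. The unfolded protein response of the endoplasmic reticulum (ER) shares the kinase PERK with it and has further sensors, IRE1, which splices the Xbp1 mRNA into the form that encodes the active factor XBP1, and ATF6. Fibroblasts secrete large amounts of collagen and therefore carry a heavy ER protein load. ATF4 and XBP1 are both controlled after transcription, so the amount of their mRNA is not a measure of their activity, and the gene-level values used here do not separate spliced from unspliced Xbp1.

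The promoters of the genes were searched for sequences that these factors are known to bind, and those with a match are shown. RefSeq (GRCm38.p6) held 11 promoter entries for the 10 genes, 2 of them for Gdf15, and the 250 bases before each start were read on both strands. The C/EBP-ATF response element, bound by ATF4 with a C/EBP partner, was searched as TGATGNAAN and found in Asns, Chac1 and Herpud1, and it occurs in 3.44% of 32851 promoter entries. The ER stress response element II, ATTGG and CCACG with 1 base between them, was found in Herpud1 only among the 10 genes and occurs in 0.0304% of entries. The ER stress response element, CCAAT and CCACG with 9 bases between them, and the unfolded protein response element TGACGTGG were found in none of the 11 entries and occur in 0.113% and 0.563% of all entries. These matches are descriptions of sequence, and a missing match says only that those letters do not stand in the window. The Herpud1 window ends in CCAAT, 9 bases and CCAC, so it cannot show whether the last base of the ER stress response element follows. The sequences run 5′ to 3′ on the strand of the gene and end at the base before the start, with the matches in capitals.
Asns: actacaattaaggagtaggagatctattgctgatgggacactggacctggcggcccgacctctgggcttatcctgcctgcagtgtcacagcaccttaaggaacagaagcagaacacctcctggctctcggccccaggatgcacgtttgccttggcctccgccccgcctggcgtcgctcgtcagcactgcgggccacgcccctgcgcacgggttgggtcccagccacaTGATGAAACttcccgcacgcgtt
Chac1: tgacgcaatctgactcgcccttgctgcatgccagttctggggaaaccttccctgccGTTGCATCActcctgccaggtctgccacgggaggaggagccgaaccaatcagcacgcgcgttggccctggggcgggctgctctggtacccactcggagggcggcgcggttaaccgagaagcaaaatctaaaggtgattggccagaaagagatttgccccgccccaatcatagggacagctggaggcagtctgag
Herpud1: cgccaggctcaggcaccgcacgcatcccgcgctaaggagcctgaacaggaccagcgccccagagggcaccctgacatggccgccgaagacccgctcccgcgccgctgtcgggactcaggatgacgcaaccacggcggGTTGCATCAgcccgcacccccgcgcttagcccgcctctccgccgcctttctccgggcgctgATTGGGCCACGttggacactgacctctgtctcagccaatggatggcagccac
The Asns window is chr6:7693210-7693459 on the minus strand, and its match begins 23 bases before the start. The Chac1 window is chr2:119350992-119351241 on the plus strand, with the element on the opposite strand 194 bases before the start. The Herpud1 window is chr8:94386179-94386428 on the plus strand. It holds the ATF4 type of element on the opposite strand, 113 bases before the start, and the ER stress response element II 52 bases before it, and the matches do not overlap.

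In fibroblasts from GSK tumours no member of the set passed the test against DMSO, and the largest difference was that of Gdf15, which was 1.22-fold lower. Atf4 and the genes grouped here as its arm, Ddit3, Trib3, Asns, Chac1 and Sesn2, were lower in 1 of the GSK libraries. In the other they were near the DMSO level. Xbp1 and Sdf2l1, of the ER arm, differed by 0.051 or less in size on the log2 scale. Herpud1, of the same arm, was at -0.12, with both GSK libraries below both DMSO libraries. The scale is log2 of normalised expression, as deposited, and differences of low genes are probably understated on it, since the lowest genes hardly vary between libraries. The test was limma with Benjamini-Hochberg adjustment over 14548 genes, all 10 members among them, with a threshold of 0.05. At that threshold 0 of 10 members were called, while 0.282% of all genes tested were, 0.131% in the lower direction. At an unadjusted p under 0.05, Herpud1 and Gdf15 were the 2 members of 10, both lower, where 16.0% of all genes in either direction and 8.13% in the lower direction were below it. With a robust variance prior 1 member, Gdf15, was called, where 138 of all 14548 genes were.

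In the levels, set per kilobase of exon so that genes can be compared, Atf4 was highest at 11.30 (log2 per kb, mean of 4 libraries), followed by Xbp1 at 10.07, Herpud1 at 9.39, Sdf2l1 at 8.92, Asns at 8.63 and Ddit3 at 8.00. Sesn2 stood at 6.89, and Chac1 at 5.62, Trib3 at 5.53 and Gdf15 at 5.29 were the lowest. The lengths join all annotated exons of a gene, so the order also depends on which transcripts the cells use. The libraries of neighbouring genes did not overlap down to Chac1. From there on they did: Chac1 lay between 5.46 and 5.68, Trib3 between 5.40 and 5.58 and Gdf15 between 5.14 and 5.46. The spread over libraries therefore does not separate Trib3 from Chac1 or from Gdf15, and it barely separates Chac1 from Gdf15. Within each library the order of these low genes was the same.

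**Figure D1:**
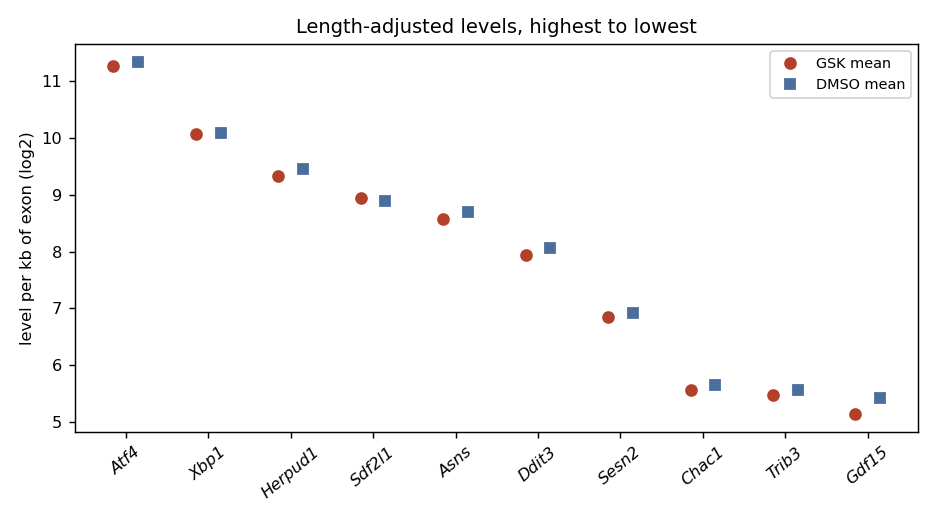
Mean level per kilobase of exon (log2, vertical axis) of each gene in GSK (circles) and DMSO (squares), ordered from high to low. Atf4 at 11.26 in GSK and 11.34 in DMSO is highest, Gdf15 at 5.14 in GSK and 5.43 in DMSO is lowest.

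Atf4 (ENSMUSG00000042406, GRCm38 chromosome 15, 80255184 to 80257541), the transcription factor at the centre of the integrated stress response, was at 12.58 and 12.41 (log2) in GSK libraries 1 and 2, against 12.58 and 12.57 in DMSO libraries 1 and 2. GSK library 1 lay between the DMSO libraries and GSK library 2 below them. The difference was -0.077 ± 0.066 (SE, 95% interval -0.24 to 0.082, limma adjusted p = 0.61).

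Ddit3 (ENSMUSG00000025408, chromosome 10, 127290774 to 127296288), which encodes the pro-apoptotic factor CHOP, was at 8.81 and 8.62 in GSK libraries 1 and 2, against 8.83 and 8.84 in DMSO. Both GSK libraries were below both DMSO libraries, library 1 only by a narrow margin. The difference was -0.12 ± 0.07 (95% interval -0.29 to 0.047, limma adjusted p = 0.444). In the annotation Ddit3 shares 68 exonic bases with Mars on the opposite strand and 105 with a second Ddit3 entry on the same strand, and whether counting used strand is not given in the sources used here.

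Trib3 (ENSMUSG00000032715, chromosome 2, 152337422 to 152344032) encodes a pseudokinase that is induced by ATF4 and CHOP and feeds back on them. It was at 6.67 and 6.49 in GSK libraries 1 and 2, against 6.65 and 6.65 in DMSO. GSK library 1 was the highest and GSK library 2 the lowest of the 4, so the groups overlapped, and the difference was -0.075 ± 0.065 (95% interval -0.23 to 0.084, limma adjusted p = 0.623).

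Asns (ENSMUSG00000029752, chromosome 6, 7675169 to 7693254), asparagine synthetase and a much-used ATF4 target, was at 10.10 and 9.93 in GSK libraries 1 and 2, against 10.15 and 10.13 in DMSO. Both GSK libraries were below both DMSO libraries. Its difference was -0.13 ± 0.06 (95% interval -0.28 to 0.026, limma adjusted p = 0.385).

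Chac1 (ENSMUSG00000027313, chromosome 2, 119351229 to 119354381), an enzyme that degrades glutathione, was at 6.39 and 6.17 in GSK libraries 1 and 2, against 6.36 and 6.38 in DMSO. As in Trib3, the GSK libraries were the highest and the lowest, and the difference was -0.088 ± 0.074 (95% interval -0.27 to 0.090, limma adjusted p = 0.602). Sesn2 (ENSMUSG00000028893, chromosome 4, 132492032 to 132510501), an inhibitor of mTORC1 signalling that senses leucine, was at 8.71 and 8.60 in GSK libraries 1 and 2, against 8.72 and 8.71 in DMSO. Its GSK libraries lay below both DMSO libraries, library 1 by very little, and the difference was -0.058 ± 0.051 (95% interval -0.18 to 0.066, limma adjusted p = 0.623).

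**Figure D2:**
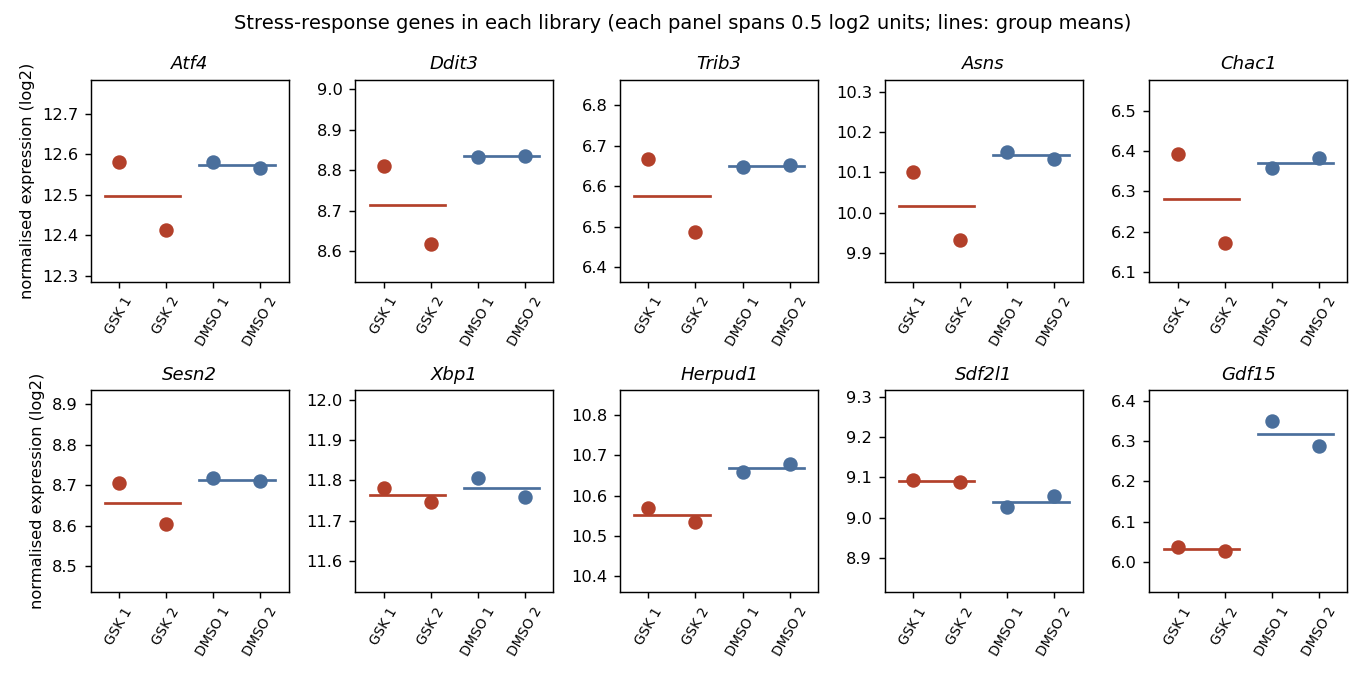
Normalised expression (log2, vertical axis) of each gene in GSK libraries 1 and 2 (left, red) and DMSO libraries 1 and 2 (right, blue), with lines at the group means; all panels span the same range. GSK library 2 is the lowest point in every panel but that of Sdf2l1. In Herpud1 and Gdf15 GSK library 1 lies close to it, and in Atf4, Ddit3, Trib3, Asns, Chac1 and Sesn2 GSK library 1 lies nearer to the DMSO libraries.

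The 6 genes grouped here as the ATF4 arm shared a library pattern. The split into arms is not part of the rule that chose the members. The pattern therefore describes these 6 genes and not the targets of ATF4 as a whole. Gdf15, which is also induced through ATF4, was grouped apart. It did not share the pattern, at -0.28 and -0.29 (log2) from its DMSO mean in GSK libraries 1 and 2. In GSK library 1 the 6 genes lay between -0.041 and 0.021 of their DMSO mean (log2). In GSK library 2 they lay between -0.22 and -0.11 of it. Their GSK libraries differed from each other by 0.10 to 0.22, their DMSO libraries by 0.0018 to 0.024. Over all genes tested the median distance between the libraries of a group was 0.050 in GSK and 0.046 in DMSO. GSK library 2 was the lowest of the 4 libraries in 9 of the 10 members, all but Sdf2l1, against 28.3% of all genes tested. In 4 of the 10 (Atf4, Trib3, Chac1 and Xbp1) GSK library 1 also lay within or above the DMSO pair, against 14.2% of all genes tested. Without GSK library 2 the differences of Atf4, Trib3 and Chac1 turned positive, at 0.0064, 0.016 and 0.021, and those of Ddit3, Asns and Sesn2 shrank to -0.023, -0.041 and -0.0073. Without GSK library 1 the 6 differences lay between -0.22 and -0.11, and the smallest limma adjusted p among them was 0.154, that of Chac1.

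**Figure D3:**
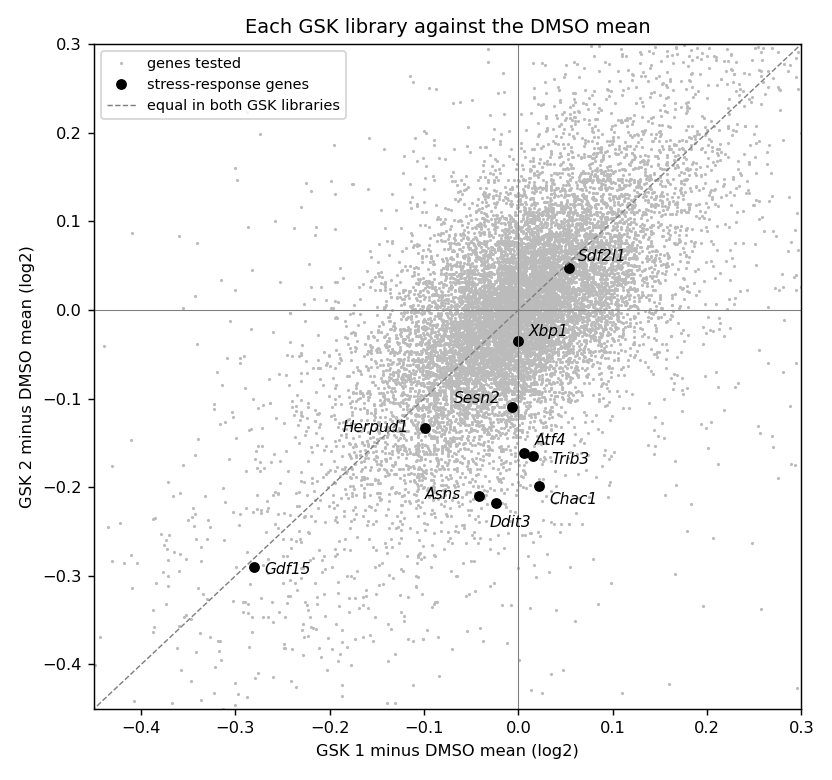
Each gene tested by its difference from the DMSO mean (log2) in GSK library 1 (horizontal axis) and GSK library 2 (vertical axis), with the 10 stress-response genes in black and a dashed line where both libraries differ equally; genes beyond the axes are not drawn. The 6 genes of the ATF4 arm sit near 0 on the horizontal axis and between -0.22 and -0.11 on the vertical one, while Gdf15, Herpud1, Xbp1 and Sdf2l1 sit near the dashed line.

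Likeness among stress genes was measured as the root mean square distance between values centred on each gene's own mean, over 4 libraries and against the 204 other tested genes of the stress lists. The nearest to Atf4 were Trib3 (0.0086) and Wars (0.010), to Trib3 they were Mthfd2 (0.0086) and Atf4, and to Chac1 they were Mthfd2 (0.011) and Cebpd (0.015). Ddit3 was nearest to Asns (0.012) and Cebpd (0.016), Asns to Hspa9 (0.011) and Ddit3, and Sesn2 to the tRNA synthetase genes Qars (0.0060) and Nars (0.0071). Xbp1 was nearest to Tars (0.0060) and Creb3l1 (0.011), Sdf2l1 to Eif2b4 (0.0024) and Dnajb11 (0.013), and Herpud1 to Kars (0.0062) and Ssr2 (0.0067). Gdf15 was farthest from its nearest genes, Psat1 (0.028) and Vegfa (0.032). These distances describe 4 libraries, and genes that hardly vary are near each other by construction.

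Xbp1 (ENSMUSG00000020484, chromosome 11, 5520659 to 5525893), whose spliced form drives genes of ER expansion and ER-associated degradation, was at 11.78 and 11.75 in GSK libraries 1 and 2, against 11.80 and 11.76 in DMSO. The groups overlapped, and the difference was -0.018 ± 0.045 (95% interval -0.13 to 0.092, limma adjusted p = 0.876). After quantile normalisation it was 0.0012 and without DMSO library 1 it was 0.0049.

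Herpud1 (ENSMUSG00000031770, chromosome 8, 94386438 to 94395377), an ER membrane protein that organises the degradation of misfolded proteins, was at 10.57 and 10.54 in GSK libraries 1 and 2, against 10.66 and 10.68 in DMSO. Both GSK libraries were lower and close to each other. The difference was -0.12 ± 0.04 (95% interval -0.22 to -0.015), an unadjusted p of 0.0302 in limma and an adjusted p of 0.251. It lay between -0.13 and -0.099 with 1 library left out at a time.

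Sdf2l1 (ENSMUSG00000022769, chromosome 16, 17130138 to 17132383), an ER resident protein that works with the chaperone BiP, was at 9.09 and 9.09 in GSK libraries 1 and 2, against 9.03 and 9.05 in DMSO. It was the one member with both GSK libraries above both DMSO libraries, by 0.051 ± 0.042 (95% interval -0.051 to 0.15, limma adjusted p = 0.6). Over the 10 members, 5 had both GSK libraries below both DMSO libraries (Ddit3, Asns, Sesn2, Herpud1 and Gdf15), where 24.5% of all genes tested did, and 1 had both above, where 24.1% did.

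Gdf15 (ENSMUSG00000038508, chromosome 8, 70629393 to 70632456) encodes a secreted stress cytokine that is induced through ATF4 and CHOP and also by p53. It was at 6.04 and 6.03 in GSK libraries 1 and 2, against 6.35 and 6.29 in DMSO, and the groups did not overlap. The difference was -0.29 ± 0.04 (95% interval -0.39 to -0.18, limma adjusted p = 0.0578), and GSK library 1 was as low as GSK library 2, unlike in the 6 genes of the ATF4 arm. Leaving out 1 library at a time gave -0.32 to -0.25 with adjusted p from 0.0575 to 0.223, and a robust variance prior gave an adjusted p of 0.0461. The summed level (2 to the power of the log2 values) of some marker lists did not overlap between the groups either, through 1 or 2 genes in several of them. The epithelial and 4T1 list, with 4 of its 10 genes in the table above the filter on low values and Epcam at 0.32 (log2), summed to 528 to 602 in GSK and 667 to 740 in DMSO, mostly through Krt19 and Lcn2. The leukocyte list, with 6 of 8 above the filter, summed to 2714 to 4160 in GSK and 1906 to 2271 in DMSO. Cd53 carried that difference, with 11.81 and 11.15 (log2) in GSK libraries 1 and 2, against 10.70 and 10.46 in DMSO, while Laptm5 lay between 4.47 and 4.58 in the 4 libraries. The endothelial list, with 6 of 9 above the filter, summed to 2220 to 2893 in GSK and 1883 to 1888 in DMSO, through Flt1 with 11.33 and 10.87 (log2) in GSK libraries 1 and 2, against 10.59 and 10.58 in DMSO, while Cdh5 lay between 3.41 and 3.45. The pericyte and smooth muscle list, with all 11 above the filter, summed to 70918 to 75910 in GSK and 56971 to 70388 in DMSO. The fibroblast list, with all 14 above the filter, summed to 3647860 to 3868390 in GSK. In DMSO it summed to 3876700 to 3893720, above both GSK libraries by a narrow margin. The part of these lists in the result was not tested. In bulk RNA, fewer cells of a type and less RNA per cell cannot be told apart.

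**Figure D4:**
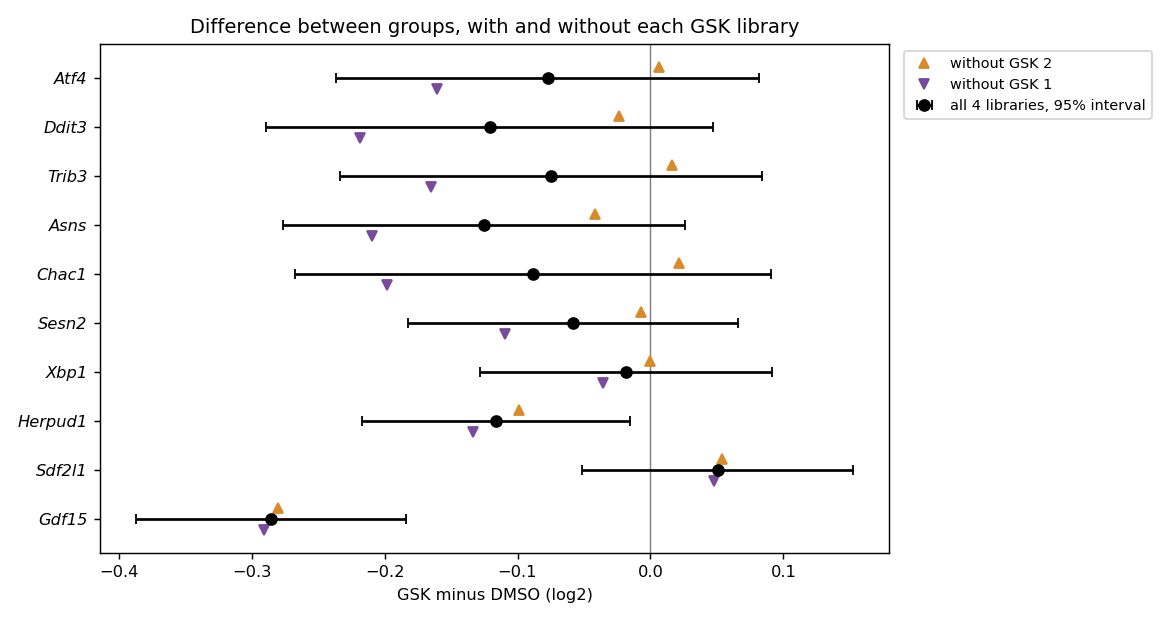
Difference GSK minus DMSO (log2, horizontal axis) of each gene with its 95% interval over all 4 libraries (black), without GSK library 2 (triangles up) and without GSK library 1 (triangles down). The interval of 8 genes includes 0; those of Herpud1 and Gdf15 do not, before adjustment over all genes.

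Other genes of the same pathways were counted from lists, none of whose members passed over all genes unless stated. The median difference of the 10 members was -0.083 (log2), 9 of them with a negative estimate, beside a median of -0.00074 and 50.5% negative over all genes tested. Of the 23 tested genes of amino acid and one-carbon metabolism that ATF4 induces, 0 were called and 21 had a negative estimate. The median was -0.099, and between -0.16 (without GSK library 1) and -0.080 with 1 library left out at a time. At an unadjusted p under 0.05, 11 were lower and 0 higher, where 1183 (8.13%) of all 14548 genes tested were lower and 1147 higher. This list was chosen with earlier results of these data known. The 2 with the smallest p were Psat1, an enzyme of serine synthesis, at -0.27 ± 0.05 (limma adjusted p = 0.0933) and the glutamine transporter gene Slc1a5 at -0.21 ± 0.05 (limma adjusted p = 0.141). In both genes the GSK libraries lay below the DMSO libraries: Psat1 was at 9.84 and 9.77 in GSK libraries 1 and 2, against 10.12 and 10.02 in DMSO.

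The 20 cytosolic aminoacyl-tRNA synthetase genes, which charge tRNAs and of which many are ATF4 targets, had 0 called, 19 negative estimates and a median of -0.054, which was -0.090 without GSK library 1 and -0.013 without GSK library 2. Kars was at -0.10 ± 0.04 (limma adjusted p = 0.302) and Vars at -0.13 ± 0.05 (limma adjusted p = 0.323). GSK library 2 was lowest in 18 of the 20. Among 16 effectors of the ATF4 arm 0 were called and the median was -0.065, with the autophagy receptor gene Sqstm1 at -0.30 ± 0.06 (limma adjusted p = 0.0858) and the angiogenic factor gene Vegfa at -0.26 ± 0.05 (limma adjusted p = 0.101).

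Upstream, 0 of 20 genes of the eIF2α kinases, the phosphatase subunits and the exchange factor were called, with a median of -0.025, which was -0.051 without GSK library 1 and -0.011 without GSK library 2. Eif2ak3, which encodes PERK, was at -0.10 ± 0.04, Eif2ak4, the amino acid sensor GCN2, at -0.012 ± 0.062, and Eif2ak1, the haem-regulated kinase, at 0.017 ± 0.049 (limma adjusted p = 0.324, 0.945 and 0.894). Eif2ak1 was at -0.022 without GSK library 2 and -0.013 without DMSO library 1, and Eif2ak4 was at 0.062 without GSK library 1 and 0.017 without DMSO library 1. Eif2ak2, the interferon-inducible kinase PKR, was at 0.23 ± 0.06 (limma adjusted p = 0.157). Ppp1r15a encodes GADD34, which recruits a phosphatase to eIF2α and is itself a target of the pathway. It was at 11.48 and 11.28 in GSK libraries 1 and 2, against 11.77 and 11.77 in DMSO. Its difference was -0.40 ± 0.07 (limma adjusted p = 0.0745), and between -0.50 and -0.30 with 1 library left out at a time.

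Of 12 partner and related bZIP factors 0 were called, with a median of -0.023, which was -0.010 without DMSO library 1 and -0.036 without DMSO library 2. Atf3, a stress-induced factor that is also an immediate early gene, was at 11.21 and 10.93 in GSK libraries 1 and 2, against 11.81 and 11.56 in DMSO. The difference was -0.61 ± 0.11 (limma adjusted p = 0.0831), and between -0.75 and -0.47 with 1 library left out at a time. Cebpb, a partner of ATF4, was at -0.17 ± 0.07 (limma adjusted p = 0.283).

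Of 31 genes of the IRE1 and XBP1 arm 0 were called, 13 had a positive and 18 a negative estimate, and the median was -0.026, which was -0.0062 without GSK library 2, -0.015 without DMSO library 1, -0.041 without GSK library 1 and -0.056 without DMSO library 2. Ern1, which encodes IRE1, was at -0.0097 ± 0.0417 (limma adjusted p = 0.932), and 0.012 without DMSO library 1. Dnajb9, an XBP1 target that represses IRE1, was at -0.15 ± 0.07 (limma adjusted p = 0.377), Derl3 at 0.12 ± 0.03 (limma adjusted p = 0.15) and the translocon gene Sec61b at -0.14 ± 0.04 (limma adjusted p = 0.198). Of 23 genes of the ATF6 arm and ER chaperones 0 were called and the median was -0.027, which turned to 0.012 without GSK library 2 and was -0.048 without GSK library 1 and -0.016 without DMSO library 2. After quantile normalisation the median was -0.0062 in the IRE1 and XBP1 list and -0.0060 in the ATF6 and chaperone list. Atf6 was at 0.079 ± 0.042 (limma adjusted p = 0.415). Hspa5, the chaperone BiP and a classical readout of ER stress, was at 15.03 and 14.94 in GSK libraries 1 and 2, against 15.23 and 15.24 in DMSO. Both GSK libraries were lower, and the difference was -0.25 ± 0.07 (limma adjusted p = 0.174).

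The remaining lists were set beside the members because they share inducers with them. In the mitochondrial stress list 0 of 10 were called (median -0.044), with the chaperonin gene Hspd1 at -0.18 ± 0.08 (limma adjusted p = 0.314). Of 15 tested p53 target genes, a list relevant to Sesn2 and Gdf15, 0 were called and the median was -0.0016, with either sign when 1 library was left out (-0.032 to 0.024). Plk2 was at -0.58 ± 0.07 (limma adjusted p = 0.0543). It passed with columns shifted to the same median and with a robust prior (limma adjusted p = 0.0462 and 0.0434). It did not pass with no filter, after quantile normalisation or without trend (limma adjusted p = 0.222, 0.0694 and 0.0763). With 1 library left out at a time it lay between -0.68 and -0.48. Ei24 was at 0.16 ± 0.05 (limma adjusted p = 0.184). Of 27 immediate early and dissociation stress genes 3 were called lower, where 0.131% of all genes tested were. They were Hspa1b, Hspa1a and Ier5, at -0.72, -0.61 and -0.44 (limma adjusted p = 0.0366, 0.046 and 0.0474). All 27 estimates were negative. At an unadjusted limma p under 0.05, 21 were lower, where 8.13% of all genes tested were. In 25 both GSK libraries were below both DMSO libraries, where 24.5% of all genes were. The median was -0.35, or -0.21 without GSK library 2. This list too was chosen with earlier results of these data known. None of the 27 was called without DMSO library 1 or without GSK library 2, and 8 were without DMSO library 2. Hspa1a and Hspa1b share 2201 bases at 99.23% identity, so their values are uncertain.

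**Figure D5:**
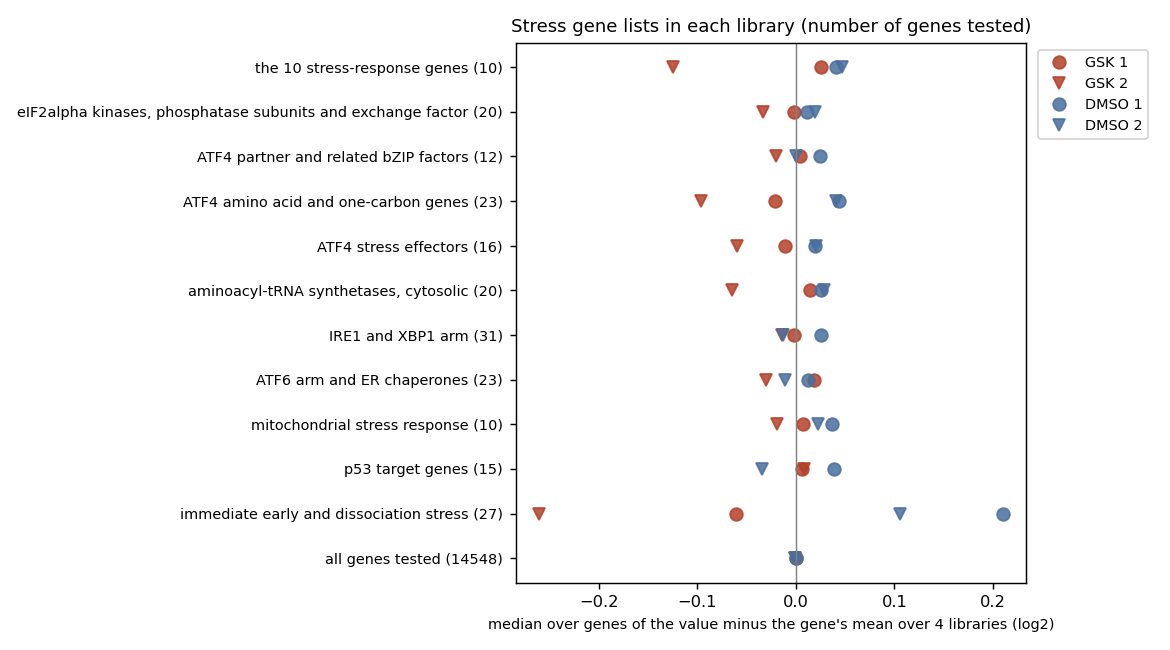
Median over the genes of each list of the value minus the gene's own mean over 4 libraries (log2, horizontal axis), for GSK (red) and DMSO (blue) libraries 1 (circles) and 2 (triangles), with the number of genes tested. The 10 stress-response genes have -0.13 in GSK library 2 and 0.025 to 0.047 in the others; the immediate early list runs from -0.26 in GSK library 2 to 0.21 in DMSO library 1.

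The library pattern of the ATF4 arm was set beside these lists. Centred on each gene's own mean, the 10 members had a median of 0.025 and -0.13 in GSK libraries 1 and 2, and 0.041 and 0.047 in DMSO. The amino acid and one-carbon list had -0.021 and -0.096 in GSK libraries 1 and 2, and 0.044 and 0.041 in DMSO, and the tRNA synthetase list had 0.015 and -0.065 in GSK, and 0.026 and 0.029 in DMSO. In each of these gene groups GSK library 2 was the lowest, and GSK library 1 also lay below both DMSO libraries. In 5 of the 10 members and 12 of the 20 synthetase genes both GSK libraries were below both DMSO libraries. The same held for 14 of the 23 amino acid and one-carbon genes, and for 24.5% of all genes tested. The immediate early and dissociation stress list was also lowest in GSK library 2. It was at -0.061 and -0.26 in GSK libraries 1 and 2, and 0.21 and 0.11 in DMSO, and unlike the members it differed between the DMSO libraries. Its part in the pattern of the members was not tested. GSK library 2 was lowest in 24 of the 27 genes of that list and in 3 of the 15 p53 target genes, against 28.3% of all genes tested. It was also lowest in 18 of 23 amino acid and one-carbon genes, 12 of 16 ATF4 effectors and 8 of 12 bZIP genes. In the mitochondrial, ATF6 and chaperone, eIF2α, and IRE1 and XBP1 lists it was lowest in 6 of 10, 11 of 23, 8 of 20 and 11 of 31.

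Some values are less certain than their errors show. Exons on the opposite strand overlap Cebpb (312 bases, Tmem189), Sqstm1 (580 bases, Mrnip), Eif2ak1 (487 bases, Aimp2), Eif2ak3 (485 bases, Gm43292) and Ei24 (324 bases, Gm26787). Hspd1 matches the pseudogene Hspd1-ps3 over 1722 bases and Sec61b matches Gm10320 over 474. Eif2ak2 shares 174 exonic bases with Gm26637 on the opposite strand. None of the 10 members matched another gene's transcript at 98% identity over 200 bases.

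The cells carried a fibroblast profile, with a mean over 14 fibroblast markers of 15.63 to 15.65 (log2) in the 4 libraries. The pericyte and smooth muscle list averaged 11.13 to 11.48, lowest in DMSO library 1. Other lists averaged between 2.67 (plasma and B cells) and 5.16 (leukocytes), although single genes such as Cd53 at 11.03 and Flt1 at 10.84 stood above them. Plasma cells have a strong XBP1 programme, and their defining genes were near the lower end of the table, with Jchain at -1.02 and Mzb1 at 0.33, where the lowest value was -1.04; Sdc1, which is not specific to plasma cells, was at 13.68.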

How the data were processed

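RNA sequencing libraries of tumour fibroblasts, 2 in the GSK and 2 in the DMSO group, were analysed from 1 table that the authors deposited, with normalised values on a log2 scale for 22456 genes. The log2 unit was read from the values (-1.04 to 20.58). Per the submitters' processing notes, the tools included Bowtie2, RSEM 1.2.29 and DESeq2 1.12.4, and the builds listed are GRCh38 and mm10, with no role stated for any of them. The sources used here do not say how the values were transformed. The lowest genes are nearly equal between libraries. The depth of the libraries is unknown.

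Symbols matched 22335 genes (GENCODE M21, GRCm38), and promoters came from RefSeq (GRCm38.p6). The 14548 genes whose mean reached the log2 of 10 were fitted with limma 3.58.1 in R 4.3.3: group as the only term, a variance prior with trend, two-sided p-values and Benjamini-Hochberg adjustment over all 14548, threshold 0.05. SE is limma's moderated standard error. With 2 libraries a group, an exact permutation test of a single value cannot go below 0.333. Transcripts were compared with blastn 2.17.0.

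The members, the 10 other stress lists and the 8 marker lists were chosen with earlier results of these data known. Genes named from a stress list were those called, otherwise the 2 with the smallest p, and always Hspa5, Ern1, Atf6, Eif2ak3, Eif2ak4, Eif2ak1, Ppp1r15a, Dnajb9 and Atf3; 1 gene that this rule names is not reported here. Alternatives were other filters, quantile normalisation, columns shifted to 1 median, a prior without trend, a robust prior, the replicate number as a block and each library left out; a threshold of 0.10 was added after seeing the data.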

Additional observations from a re-analysis of the deposited data

How the results depend on the processing

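No member was called under the other filters, quantile normalisation, columns shifted to the same median, a prior without trend or any library left out (0 to 0 called). With a robust prior 1 was called, with the replicate number as a block 1 and at a threshold of 0.10 1, Gdf15 each time (limma adjusted p = 0.0461, 0.00668 and 0.0578). The median over the members was -0.083 and lay between -0.16 and -0.0040 with 1 library left out: -0.16 without GSK library 1 and -0.0040 without GSK library 2. With 1 library left out, Atf4 ranged from -0.16 to 0.0064, Trib3 from -0.17 to 0.016, Chac1 from -0.20 to 0.021, Xbp1 from -0.041 to 0.0049 (0.0012 after quantile normalisation), Ern1 from -0.031 to 0.012, Eif2ak4 from -0.086 to 0.062 and Eif2ak1 from -0.022 to 0.056; the lone library then left in a group is assumed to vary like the others. The other members kept their sign under all 11 alternatives.

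Over all genes 41 were called. The count was 1 with no filter, 23 after quantile normalisation, 126 with columns shifted to the same median, 11 without trend, 138 with a robust prior and 363 at a threshold of 0.10, and 7 to 194 with 1 library left out; the cause was not tested. These scalings moved the median of all genes by 0.0011 or less in size. The replicate numbers are shared by the groups, but no label ties them to a batch or animal. Deviations of same-numbered libraries correlated at 0.43 over genes. The immediate early list had 3 genes called, 0 with no filter or without trend, 1 with the stricter filter, 5 with columns shifted or a robust prior, and 0 to 8 with 1 library left out. With the replicate block 21 of that list, 7 amino acid and one-carbon genes, 4 ATF4 effectors, 3 IRE1 and XBP1 genes, 3 p53 targets, 2 eIF2α genes, 2 bZIP genes, 1 ATF6 or chaperone gene, 1 mitochondrial gene, 0 synthetase genes and 1374 genes in all were called. Depth is unknown, so it sets no stated limit. The scale and 2 libraries a group limit the precision.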
